A study of Mus musculus with 24 samples.

Results

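The genes described here encode the proteins of the cytosolic ribosome. They were chosen by symbol: every gene of the deposited table named Rpl or Rps with a number and an optional a, x or y suffix, together with Rplp0, Rplp1, Rplp2 and Rpsa. Symbols ending in ps, which mark pseudogenes, and the Rps6k kinases were left out. The rule gave 76 of the 10721 genes in the table, of which 31 belong to the small subunit and 45 to the large subunit. All 76 passed the filter on low values. Among 77 protein-coding RefSeq symbols that fit the rule, Rpl34 and Rps27 were not analysed here. The remaining member, Rps4y2, is annotated by RefSeq as a transcribed pseudogene under the symbol Rps4l, and was counted with the small subunit by its symbol.

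RNA was sequenced from mouse bone-marrow-derived osteoclast precursors, the cells that the cytokine RANKL turns into bone-resorbing osteoclasts. The groups were STING-deficient (KO) and wild-type (WT), each at day 0 and after 2, 3 and 4 days of RANKL. STING is an adaptor that links cytosolic DNA sensing to type I interferon, and the labels do not describe the mutant allele or strain. Marrow came from females aged 10 to 12 weeks and was grown for 72 h with 40 ng/mL mCSF, a growth factor of the macrophage lineage, in both genotypes. Day 0 cells were taken at that point. The other cells were replated at 25000 per well with 10 ng/mL RANKL and 20 ng/mL mCSF, and the wells of a mouse were pooled at each time. There were 3 mice per genotype (KO 481, 528 and 532, and WT 480, 529 and 531), and each mouse gave 1 library at each of 4 times, so the 24 libraries formed 8 groups of 3. RANKL, replating, the lower mCSF dose and time all differ between the RANKL days and day 0 and cannot be told apart.

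Values were deposited as FPKM, fragments scaled to transcript length and to library size, so levels of different genes are compared per length. The way library size was scaled is not described here. The median FPKM over the genes of the table ran from 9.855 to 10.73 per library. The depth behind the values is unknown, so their precision is judged from the spread of the 3 libraries of a group. The genes of the table had been preselected, so shares of all genes in the comparisons below refer to this table and not to all expressed genes. The summed FPKM of the table ran from 459180 to 537906 per library on the RANKL days, against 573661 to 734974 at day 0. The targeted gene Tmem173 (Sting1) had 5.08, 4.57 and 4.89 FPKM in the KO libraries at day 0, against 28.7, 25.4 and 21.3 FPKM in the WT libraries. KO and WT libraries did not overlap in Tmem173 on any day, but the difference passed the threshold at day 0 alone (limma adjusted p = 4.24e-10, against 0.0535 at day 2 and 1.0 at days 3 and 4). At day 4 the values were 2.65, 2.86 and 2.85 FPKM in KO and 3.38, 4.93 and 5.01 FPKM in WT. The summed FPKM of 10 osteoclast markers, all of which rose, was 45457 to 50104 in KO and 41520.5 to 48309 in WT at day 4, against 71.9 to 181 in KO and 106 to 158 in WT at day 0. Markers of neutrophils, B cells and erythroid cells were detected mainly at day 0. The sum of 8 neutrophil markers, all of which fell at day 2, was no more than 219.7 FPKM in any RANKL library, against 7451 to 12959.8 FPKM in KO and 5863 to 16062 FPKM in WT at day 0. Sums of 6 B cell markers were at most 0.595 FPKM on the RANKL days, against at most 106.6 FPKM at day 0, and those of 3 erythroid markers at most 0.354 FPKM, against at most 30.1 FPKM. Of the B cell markers 1 to 4 and of the erythroid markers 0 to 2 were listed at 0 in all 3 libraries of a RANKL group. The sum of 8 macrophage markers was lowest at day 2: it was 2435 to 3315 FPKM in KO and 2281 to 3431 FPKM in WT at day 0, 1730.5 to 1975 FPKM in KO and 1684 to 2143 FPKM in WT at day 2, and 3162 to 3933 FPKM in KO and 3258 to 3631 FPKM in WT at day 4. Of these markers 7 fell in KO and 6 in WT at day 2 against day 0, against 39.4% and 40.1% of all genes. At day 4 against day 0, 2 rose and 5 fell in each genotype. The shares of all genes were then 40.7% and 43.1% in KO and 40.9% and 44.6% in WT. Every comparison with day 0 below stands beside such marker differences, and their part in the results was not tested. In bulk RNA, fewer cells of a type and less RNA per cell cannot be told apart.

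The ribosome reads mRNA with its small subunit and joins amino acids with its large subunit, and its proteins are made in matched amounts, apart from the stalk proteins, which are present in several copies. Their mRNAs are among the most abundant of growing cells. Most of them start with a 5′ terminal oligopyrimidine (TOP) tract, a C followed by an unbroken run of C and T, through which the kinase mTOR and the protein Larp1 control their translation and stability. Their transcription is known to be promoted by Myc and by factors such as GABP and YY1.

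RefSeq promoter windows (GRCm38.p6), which run from 250 bases before to 50 bases after each annotated start, were matched by symbol to 55 members, with 64 windows in all. Within 50 bases either side of the start, the longest run of C and T had at least 8 bases in 51 of the 64 windows, 79.7%, against 35.7% of 32851 windows of all genes. The median longest run was 11 bases in the members' windows and 7 in all windows. The following 30-base stretches, read 5′ to 3′ along the gene, are shown because their members stand near the ends of the results: Rpl38, Rpl41, Rplp2, Rps15a and Rps10 were among those with the largest falls at day 4 in WT, Rpl26, Rpl4, Rpl15 and Rplp0 were among those with small ones, and Rps6 is the family's S6 kinase target. Capitals mark the longest pyrimidine run within 50 bases of the start.
Rpl38, chr11:114668568-114668597, plus strand: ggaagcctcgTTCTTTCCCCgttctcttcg
Rpl41, chr10:128549119-128549148, minus strand: cgccattaaatagcagtaggCCTCCCTCTC
Rplp2, chr7:141447636-141447665, plus strand: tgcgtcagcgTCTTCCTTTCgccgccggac
Rps15a, chr7:118116143-118116172, minus strand: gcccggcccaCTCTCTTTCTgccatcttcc
Rps10, chr17:27635227-27635256, minus strand: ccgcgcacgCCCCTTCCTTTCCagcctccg
Rps6, chr4:86857349-86857378, minus strand: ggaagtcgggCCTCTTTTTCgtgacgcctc
Rpl26, chr11:68901508-68901537, plus strand: tcccaaccTCCTCTCCCCTTTCgctccgag
Rpl4, chr9:64173405-64173434, plus strand: gagcgtggCCTTCTCCTCTCCCCgtcatgg
Rpl15, chr14:18270968-18270997, minus strand: gagaaagCCTTCTTCCTTTCCTCTggcggc
Rplp0, chr5:115559466-115559495, plus strand: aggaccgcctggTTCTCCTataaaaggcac
The runs had 14 bases in Rpl26, 15 in Rpl4 and 17 in Rpl15, against 10 in Rpl38, Rpl41, Rplp2 and Rps15a and 13 in Rps10. These members were picked from the ends of the results, and a relation of run length to the change was not tested. Among members not shown, Rpl11 had 17 bases and a WT change of -1.27 at day 4, and Rpl5 had 9 bases and -0.69. Rplp0 had the shortest of those shown, with 7 bases. With the annotated start counted as 0, the run began at -2 in Rpl38, -1 in Rps6 and -4 in Rpl15, but at 40 in Rpl41, where it reaches the window's end, and at -50 in Rpl26, the edge of the stretch searched. The letters before that edge in Rpl26 are also pyrimidines, so its unbroken run is longer than the 14 bases counted. The start used in these cells was not measured. On both strands of the whole windows, the letters CCGGAAG, bound by GABP and other ETS factors, occurred in 24 of the 64 members' windows, 37.5%, against 8.86% of all windows. AAGATGG, the YY1 motif, occurred in 15.6% against 6.34%, GGGCGG (SP1) in 60.9% against 35.7%, CACGTG (Myc and other E-box factors) in 9.38% against 7.15%, and TATAAA in 9.38% against 13.6%. A window counted once per motif, and since CCGGAAG and AAGATGG can share the letters AAG, 1 stretch can count for both. These are letters in a window and not measured binding sites.

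In FPKM as deposited, ribosomal protein mRNA levels were highest before RANKL and lowest at day 4 in both genotypes. The order of days 0 and 2 depended on the scaling: with libraries scaled to equal summed FPKM, the members' median change at day 2 was 0.16 in KO and 0.09 in WT. The median FPKM over the 76 members was 798, 817 and 577 in the KO libraries at day 0, 593, 664 and 565 at day 2, 514, 568 and 452 at day 3 and 402, 396 and 396 at day 4. In the WT libraries it was 878, 745 and 974 at day 0, 608, 547 and 711 at day 2, 484, 484 and 444 at day 3 and 371, 353 and 441 at day 4. The day 4 libraries lay below all day 0 libraries in each genotype, and the day 0 libraries were the most spread, with the KO library of mouse 532 lowest and the WT library of mouse 531 highest. All 76 members had their lowest group mean at day 4. The group mean was lower at each later day in 65 members in KO and 71 in WT, and the remaining 11 and 5 members were highest at day 2.

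**Figure D1:**
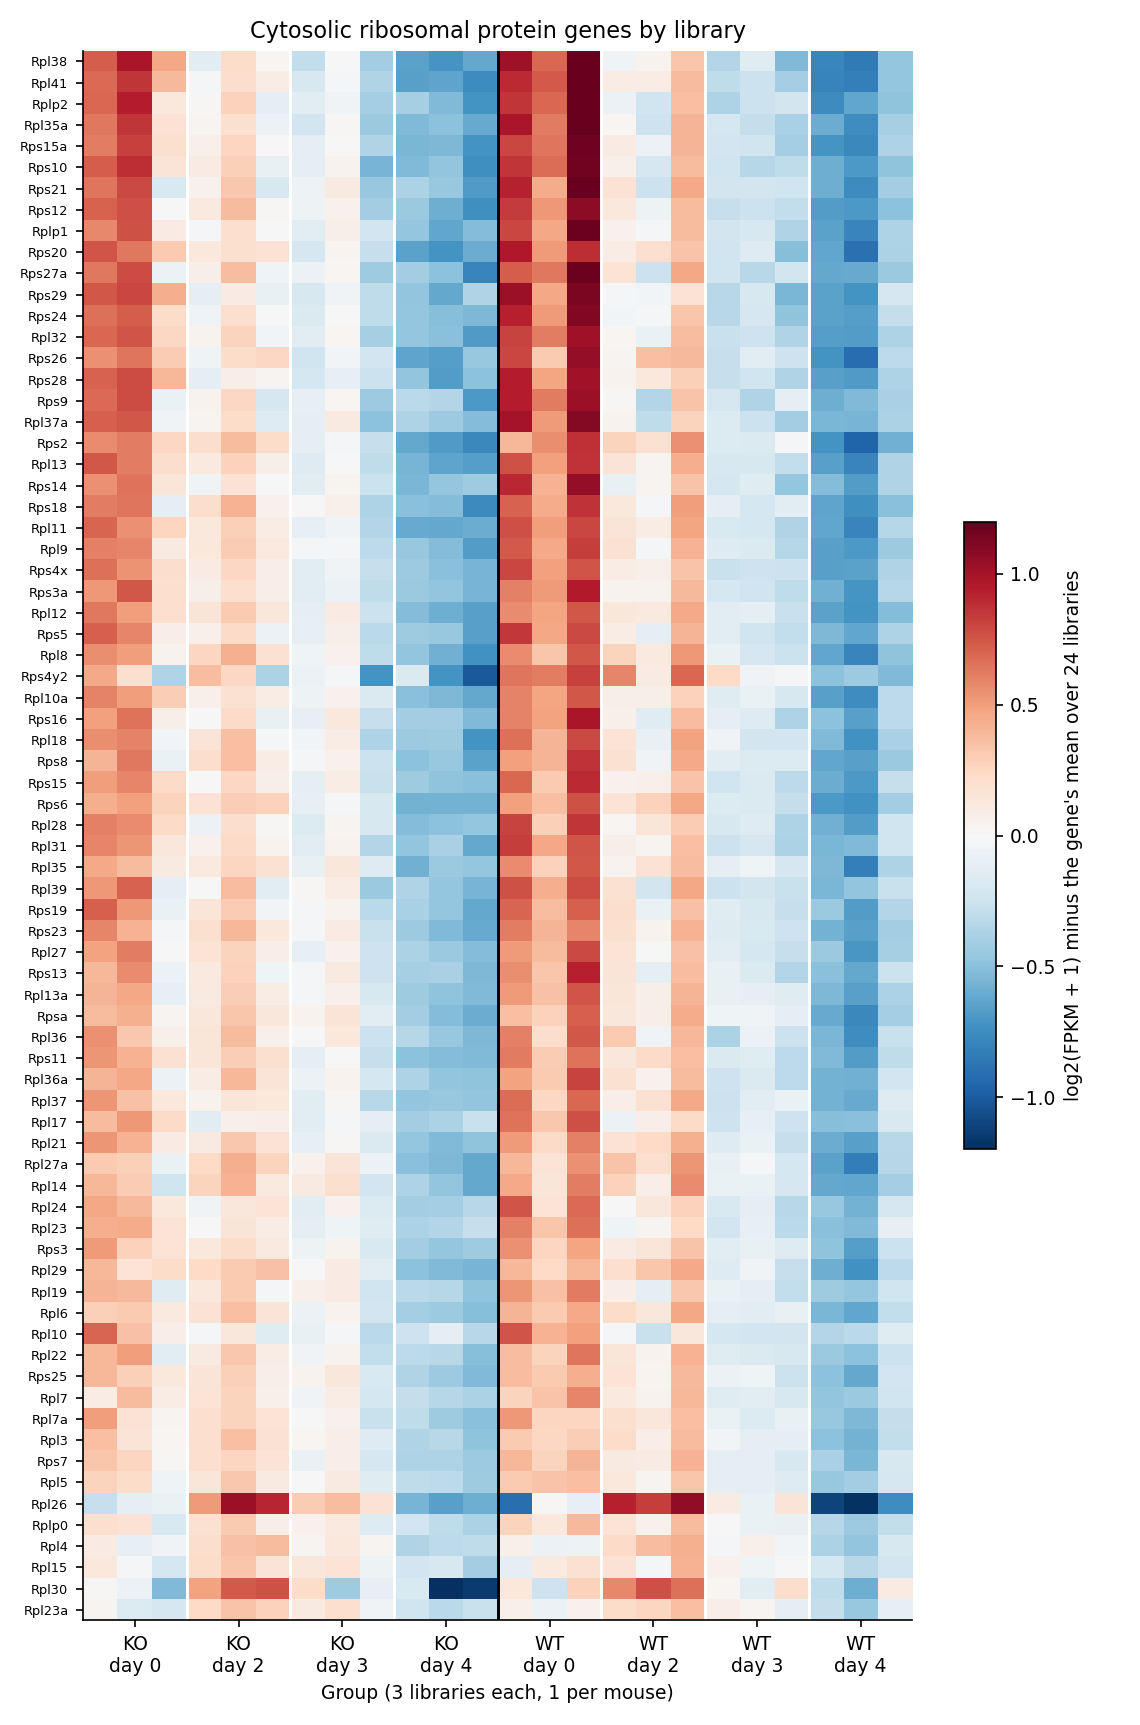
Level of 74 of the 76 members (rows) in each of the 24 libraries (columns, 3 mice per group), as log2(FPKM + 1) minus the gene's mean over all libraries. Colours end at 1.2 in either direction. Rows run from the largest to the smallest fall between day 0 and day 4 in WT: nearly all rows are red at day 0 and blue at day 4, while Rpl26 and Rpl30 near the foot are reddest at day 2.

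Between day 4 and day 0, 75 of the 76 members fell in KO and 75 fell in WT (limma on log2(FPKM + 1), Benjamini-Hochberg over the 10081 genes tested, threshold 0.05). Of all genes tested, 43.1% were called lower in KO and 44.6% in WT. The exceptions were Rpl23a in KO, with -0.16 on the log2 scale (adjusted p = 0.124), and Rpl30 in WT, with -0.32 (adjusted p = 0.2). The median log2 change of the members was -0.87 in KO and -1.11 in WT, against medians over all genes of -0.05 and -0.07. The interquartile range of the members ran from -1.02 to -0.71 in KO and from -1.32 to -0.93 in WT. Scaled to equal summed FPKM, the medians were -0.63 in KO and -0.69 in WT, against medians over all genes of 0.16 and 0.29. At that scaling 70 and 71 members fell, and the share of all genes called is not given. In 73 members in KO and 74 in WT every day 4 library was below every day 0 library, against 42.5% and 42.9% of all genes. Leaving out 1 mouse at a time left 70 to 75 members lower in KO and 72 to 75 in WT. Across the 76 members the KO and WT changes, which share no library, had a Pearson correlation of 0.929 and a Spearman correlation of 0.929.

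As a share of the summed FPKM of the table, the members made up 12.4, 12.6 and 10.4% in the KO libraries at day 0, 12.4, 13.6 and 12.4% at day 2, 10.3, 10.7 and 9.23% at day 3 and 7.63, 7.34 and 7.10% at day 4. The WT libraries had 12.1, 11.7 and 14.1% at day 0, 12.6, 12.3 and 13.9% at day 2, 9.75, 9.85 and 9.39% at day 3 and 7.08, 7.01 and 8.03% at day 4. The share at day 2 lay within or beside the range at day 0, while every library at days 3 and 4 was below the range of day 2. The share at day 4 over that at day 0 of the same mouse averaged 0.628 ± 0.0514 in KO and 0.585 ± 0.013 in WT (SD, n = 3 mice each).

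**Figure D2:**
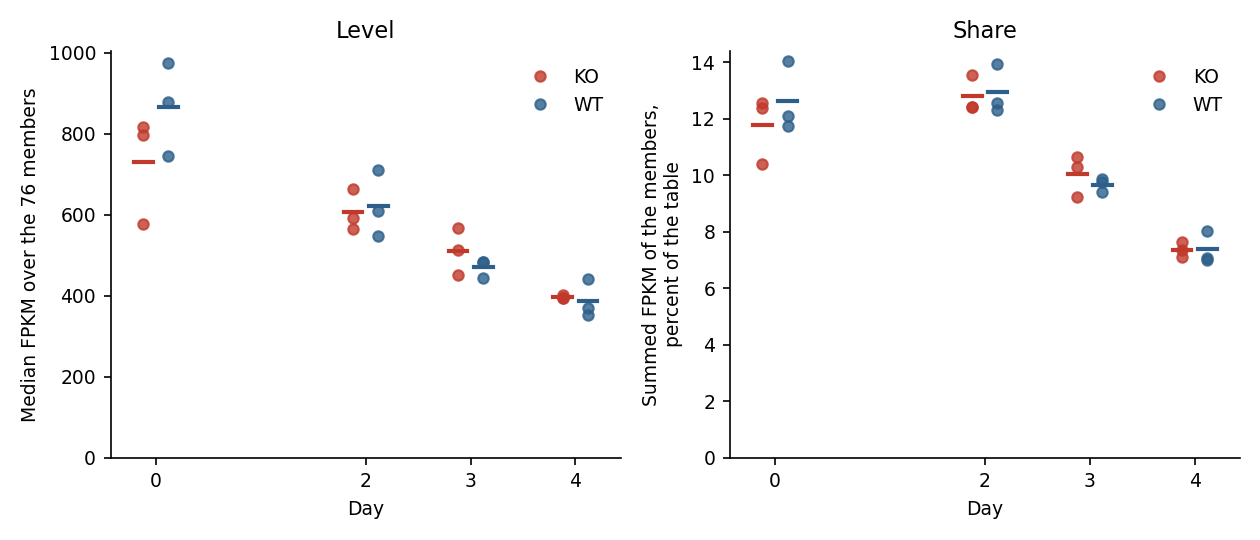
Left, the median FPKM over the 76 members in each library; right, the members' summed FPKM as a percentage of the table's summed FPKM. Points are libraries (3 per group), bars are group means, KO left of WT at each day. The group mean of the median level was lower at each later day, whereas the share at day 2 (12.4 to 13.6% in KO and 12.3 to 13.9% in WT) was on average not below that at day 0 and was lower at days 3 and 4.

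At day 2 against day 0 fewer members passed the threshold than at day 4. The interquartile range of their changes ran from -0.37 to -0.08 in KO and from -0.58 to -0.23 in WT. In KO, 28 members fell and 5 rose, against 39.4% and 40.1% of all genes, and in WT 51 fell and 4 rose, against 40.1% and 41.2%. Every day 2 library was below every day 0 library in 12 members in KO, against 38.7% of all genes, and in 34 in WT, against 37.8%. The median change was -0.24 in KO and -0.43 in WT. The share of members that fell was thus 36.8% in KO, below the share of all genes, and 67.1% in WT. Scaling the libraries to equal summed FPKM, which moved the median of all genes to 0.35 in KO and 0.45 in WT, turned the direction of the members' median, as given above. With that scaling 30 members rose and 2 fell in KO, and 27 rose and 6 fell in WT. The share of all genes called with it is not given, so these counts have no background. Under both scalings the members' median was below the median of all genes at day 2. Without KO mouse 481 the KO median was -0.13, and without KO mouse 532 it was -0.34. Leaving out 1 mouse at a time gave 9 to 41 members past the threshold in KO and 32 to 53 in WT. The counts also rested on single mice: without KO mouse 481, 5 members rose and 4 fell in KO; without KO mouse 528, 4 rose and 10 fell; and without WT mouse 480, 3 rose and 29 fell in WT.

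At day 3 against day 0, 61 members fell and 1 rose in KO, against 41.8% and 41.0% of all genes, with a median of -0.49. In WT 71 fell and 1 rose, against 43.3% and 42.0% of all genes, with a median of -0.77. The riser in both genotypes was Rpl26. The libraries lay below day 0 without overlap in 39 members in KO, against 40.5% of all genes, and in 71 in WT, against 42.1%. After scaling to equal summed FPKM the medians were -0.19 in KO and -0.28 in WT, against 0.24 and 0.39 over all genes. With it 31 and 49 members fell, and the share of all genes called is not given. Without KO mouse 481, 33 members fell and 0 rose in KO.

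The stalk of the large subunit, built on Rplp0 by Rplp1 and Rplp2, recruits the elongation factors. Its 3 members fell at day 4 in both genotypes, but by unequal amounts. Rplp1 and Rplp2 have 342 and 345 coding bases and Rplp0 has 951, and the part of length in this inequality was not tested. Rplp2 had 2824, 3358 and 1909.7 FPKM in KO at day 0, 1764, 2114 and 1612 at day 2, 1607, 1704 and 1316 at day 3 and 1332, 1213 and 1065 at day 4. Its WT values were 3181, 2825 and 4587 FPKM at day 0, 1668, 1486 and 2256 at day 2, 1354, 1467 and 1499.6 at day 3 and 1038, 1139 and 1252 at day 4. All day 4 libraries were below all day 0 libraries, and the change at day 4 was -1.13 (SE 0.20, limma adjusted p = 2.53e-05) in KO and -1.60 (SE 0.20, limma adjusted p = 2.65e-07) in WT. Rplp1, the member with the highest mean FPKM of all 76, changed by -1.02 (SE 0.17, limma adjusted p = 1.85e-05) in KO and -1.42 (SE 0.17, limma adjusted p = 2.18e-07) in WT. Rplp0, the scaffold, had 833, 788 and 749.6 FPKM in KO at day 4, against 1118, 1097 and 861 FPKM at day 0. WT libraries had 767, 722 and 796 FPKM at day 4, against 1172, 1066 and 1275 FPKM at day 0. These groups did not overlap, and the changes, -0.37 (SE 0.11, limma adjusted p = 0.00502) in KO and -0.62 (SE 0.11, limma adjusted p = 3.64e-05) in WT, were among the smallest of the members. The FPKM ratio of Rplp1 to Rplp0 was 2.68 ± 0.112 in KO and 2.81 ± 0.111 in WT at day 2 (SD, n = 3 each), against 3.92 ± 0.447 in KO and 4.33 ± 0.68 in WT at day 0.

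Rpl5 and Rpl11 form a particle with the 5S rRNA before they join the large subunit, and unassembled they bind Mdm2, the regulator of p53. Both fell at day 4. Rpl11 had 368, 365 and 371 FPKM in KO at day 4, against 906, 816 and 668 FPKM at day 0, a change of -1.10 (SE 0.13, limma adjusted p = 1.99e-07). WT libraries had 363, 322 and 442 FPKM at day 4, against 954, 791 and 974 FPKM at day 0, a change of -1.27 (SE 0.13, limma adjusted p = 2.21e-08). Rpl5 had smaller changes, -0.49 (SE 0.10, limma adjusted p = 0.000112) in KO and -0.69 (SE 0.10, limma adjusted p = 1.61e-06) in WT. Its levels were 119, 118 and 109 FPKM in KO at day 4, against 177, 171 and 141 FPKM at day 0, and 106, 109.8 and 128 FPKM in WT at day 4, against 183, 186 and 189 FPKM at day 0. The groups of both genes did not overlap within a genotype.

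All 31 small subunit members fell at day 4 in both genotypes, with a median of -0.96 in KO and -1.23 in WT. The 45 large subunit members had medians of -0.76 and -0.99, with 44 lower in each genotype. The summed FPKM of large over small subunit members was 1.25 ± 0.00451 in KO and 1.25 ± 0.0169 in WT at day 4, against 1.15 ± 0.0233 in KO and 1.15 ± 0.0307 in WT at day 0 (SD, n = 3 each), and the ranges of day 0 and day 4 did not overlap. At day 2 it was already 1.24 ± 0.00755 in KO and 1.22 ± 0.00557 in WT.

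Assigned to the head of the small subunit were 14 members. Their changes at day 4 ran from -1.22 to -0.71 in KO and from -1.48 to -0.82 in WT. Rps10, which is ubiquitinated when ribosomes collide, had 323, 336 and 279.6 FPKM in KO at day 4, against 771, 863 and 520.4 FPKM at day 0. Its WT values were 310.4, 289.6 and 333 FPKM at day 4, against 848, 740.4 and 1043 FPKM at day 0. Its change was -1.17 (SE 0.18, limma adjusted p = 6.14e-06) in KO and -1.48 (SE 0.18, limma adjusted p = 2.41e-07) in WT, with the KO library of mouse 532 below the other day 0 libraries. Rps20, another target of that ubiquitination, changed by -1.22 (SE 0.14, limma adjusted p = 1.34e-07) in KO and -1.42 (SE 0.14, limma adjusted p = 1.37e-08) in WT. Rps28 and Rps29 changed by -1.18 and -1.14 in KO and by -1.37 and -1.40 in WT. Rps15, among the 5 members with the highest mean FPKM, had 1370.5, 1321 and 1306 FPKM in KO at day 4, against 2615, 2764 and 2166 FPKM at day 0, and 1220.1, 1143 and 1521 FPKM in WT at day 4, against 2970.4, 2289.7 and 3434 FPKM at day 0. Rps27a, which is made as a fusion with ubiquitin, changed by -1.02 (SE 0.20, limma adjusted p = 0.000111) in KO and -1.40 (SE 0.20, limma adjusted p = 2.32e-06) in WT.

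To the body and platform of the small subunit 17 members were assigned, among them Rps4y2, which RefSeq annotates as a transcribed pseudogene. Rps6, the protein that S6 kinases phosphorylate downstream of mTOR, had 381, 398 and 339 FPKM in KO at day 0, 318, 347 and 343 at day 2, 263, 277 and 247 at day 3 and 189.7, 190.4 and 190.1 at day 4. The WT libraries held 398, 363 and 480.4 FPKM at day 0, 317, 341 and 389.6 at day 2, 252, 249 and 231 at day 3 and 175, 169.6 and 212 at day 4. Each genotype's day 4 libraries were below all its libraries of other days, and the change from day 0 was -0.96 (SE 0.10, limma adjusted p = 4.33e-08) in KO and -1.15 (SE 0.10, limma adjusted p = 2.83e-09) in WT. Rps2, which lies at the mRNA entry channel, had 475, 455 and 427 FPKM in KO at day 4, against 1079.8, 1116 and 867 FPKM at day 0, a change of -1.17 (SE 0.13, limma adjusted p = 7.44e-08). Rps15a had 32.9, 31.3 and 41.8 FPKM in WT at day 4, against 95.1, 84.9985 and 123 FPKM at day 0, a change of -1.49 (SE 0.16, limma adjusted p = 3.7e-08). Rps26, at the mRNA exit channel, and Rps21 were the other small subunit members among the 5 with the highest mean FPKM, and their changes at day 4 were -1.08 and -0.92 in KO and -1.37 and -1.44 in WT.

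The largest falls of all were in the large subunit, in Rpl38 and Rpl41. Their coding sequences of 210 and 75 bases are among the shortest of the members. Shorter members, and those of higher mean FPKM, fell more, as given below. Rpl38, known in mice for its part in the translation of Hox mRNAs, had 2019.5, 2397 and 1675 FPKM in KO at day 0, 1114, 1414 and 1239 at day 2, 989, 1213 and 910.1 at day 3 and 778, 747 and 796 at day 4. In WT it had 2463, 1961 and 3423 FPKM at day 0, 1181, 1257 and 1531 at day 2, 955, 1098 and 846 at day 3 and 707, 677 and 881 at day 4. Day 0 lay above every later library in both genotypes, and the change at day 4 was -1.38 (SE 0.18, limma adjusted p = 5.07e-07) in KO and -1.76 (SE 0.18, limma adjusted p = 1.35e-08) in WT. Rpl41, the shortest ribosomal protein, had 764, 772 and 712 FPKM in KO at day 4, against 1919, 2169 and 1572 FPKM at day 0. The WT libraries had 687, 679 and 871 FPKM at day 4, against 2233, 1992 and 2873 FPKM at day 0. The groups did not overlap, and the change was -1.32 (SE 0.14, limma adjusted p = 3.5e-08) in KO and -1.66 (SE 0.14, limma adjusted p = 1.07e-09) in WT. Rpl35a changed by -1.10 (SE 0.18, limma adjusted p = 1.21e-05) in KO and -1.54 (SE 0.18, limma adjusted p = 1.19e-07) in WT.

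A handful of members did not share the common course. The 5 members that were highest at day 2 in WT were Rpl4, Rpl15, Rpl23a, Rpl26 and Rpl30, and in KO these 5 were joined by Rpl3, Rpl5, Rpl14, Rpl27a, Rpl29 and Rplp0. Over the 24 libraries 69 of the 76 members had a Spearman correlation above 0.9 with the mean of the other members, with a median of 0.971, while Rpl26 had 0.384, Rpl30 0.514, Rpl4 0.583, Rpl23a 0.591 and Rpl15 0.688. All of these points share the libraries and their scaling.

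Rpl26, at the rim of the tunnel through which the new protein leaves the ribosome, had the largest rise. It had 88.8, 98.9 and 101 FPKM in KO at day 0, 154, 220.3 and 204 at day 2, 133, 139 and 121 at day 3 and 72.9, 68.0 and 71.1 at day 4. In WT it had 57.2, 109 and 100.1 FPKM at day 0, 206, 192 and 225 at day 2, 115, 102 and 120.1 at day 3 and 49.1, 46.7 and 63.6 at day 4. Day 2 stood above all other libraries of its genotype, and the change from day 0 was 0.98 (SE 0.17, limma adjusted p = 3.73e-05) in KO and 1.27 (SE 0.17, limma adjusted p = 1.32e-06) in WT. By day 4 it had changed by -0.44 (SE 0.17, limma adjusted p = 0.0254) in KO and -0.69 (SE 0.17, limma adjusted p = 0.00115) in WT, and the WT day 0 library of mouse 480 overlapped the day 4 libraries.

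Rpl4, whose extension lines the exit tunnel, had 1150.0, 1003 and 1040.0 FPKM in KO at day 0, 1241, 1374 and 1399 at day 2, 1094, 1170.3 and 1098 at day 3 and 833, 861 and 868 at day 4. In WT it had 1119, 1023 and 1029 FPKM at day 0, 1256, 1384 and 1442 at day 2, 1056, 1116 and 1049 at day 3 and 823, 772 and 938 at day 4. It rose at day 2, by 0.33 (SE 0.09, limma adjusted p = 0.00185) in KO and 0.36 (SE 0.09, limma adjusted p = 0.000799) in WT, and at day 4 its change from day 0 was -0.32 (SE 0.09, limma adjusted p = 0.00251) in KO and -0.33 (SE 0.09, limma adjusted p = 0.00175) in WT. Rpl23a, where factors that handle the new protein dock, rose at day 2 by 0.40 (SE 0.10, limma adjusted p = 0.000971) in KO and 0.26 (SE 0.10, limma adjusted p = 0.0189) in WT. At day 4 it had 931, 874 and 914 FPKM in KO, against 1119, 979 and 952 FPKM at day 0, and 897, 801 and 1027 FPKM in WT, against 1147, 1047 and 1137 FPKM at day 0. Rpl15, a core protein of the large subunit, rose at day 2 in KO, by 0.27 (SE 0.11, limma adjusted p = 0.0254), and its value in WT was 0.13 (SE 0.11, limma adjusted p = 0.278). At day 4 its change was -0.24 (SE 0.11, limma adjusted p = 0.0417) in KO and -0.32 (SE 0.11, limma adjusted p = 0.0088) in WT. With equal summed FPKM the day 4 values of these members turned to 0.08 in KO and 0.13 in WT for Rpl23a, and to 0.10 for Rpl4 and 0.10 for Rpl15 in WT, and Rpl30, described next, turned to 0.10 in WT.

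Rpl30, which also acts in selenocysteine decoding, had 44.8, 42.3 and 30.5 FPKM in KO at day 0, 62.2, 74.7 and 76.3 at day 2, 51.7, 32.8 and 41.4 at day 3 and 38.9, 18.4 and 19.4 at day 4. In WT it had 48.6, 37.3 and 54.0 FPKM at day 0, 66.5, 76.8 and 70.8 at day 2, 45.0, 40.2 and 51.4 at day 3 and 35.6, 29.2 and 47.5 at day 4. It rose at day 2, by 0.86 (SE 0.23, limma adjusted p = 0.00222) in KO and 0.62 (SE 0.23, limma adjusted p = 0.0195) in WT. Its level was the second lowest of the 76 members, and a near-identical copy in the table carried more. Gm12191, a processed pseudogene in GENCODE vM21 that matches the Rpl30 coding sequence at 95% identity or more, averaged 427 ± 14.3 FPKM in KO at day 4, against 791 ± 65.1 FPKM at day 0, and 399 ± 62.4 FPKM in WT at day 4, against 892 ± 116 FPKM at day 0 (SD, n = 3 each). Gm12191 followed the course of the other members, with changes at day 2 of -0.34 (SE 0.12, limma adjusted p = 0.0132) in KO and -0.47 (SE 0.12, limma adjusted p = 0.00138) in WT, and at day 4 of -0.88 (SE 0.12, limma adjusted p = 9.8e-07) in KO and -1.16 (SE 0.12, limma adjusted p = 1.91e-08) in WT. The split of reads between these copies by the authors' counting is unknown, so the level and course of Rpl30 are uncertain.

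**Figure D3:**
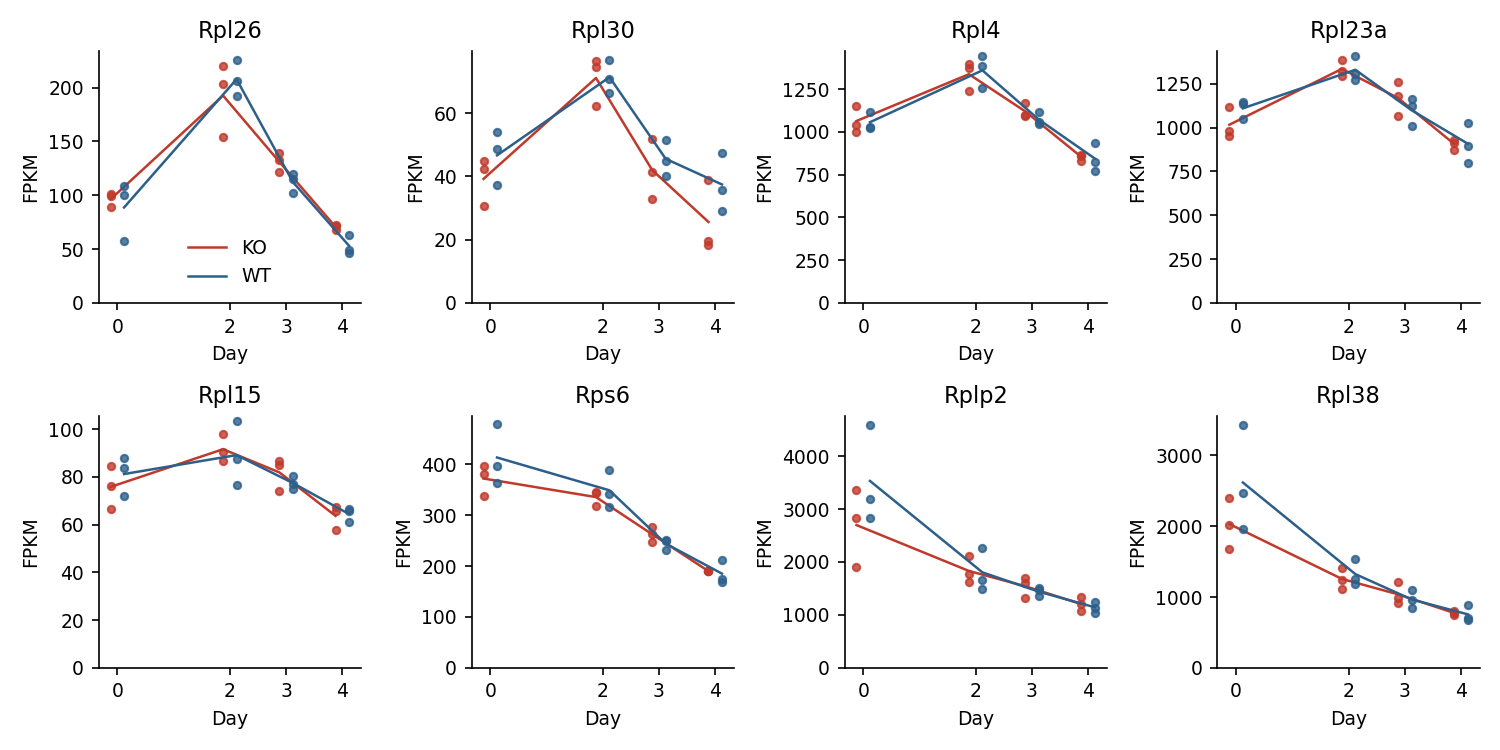
FPKM of 8 members by day, KO points and lines in red drawn left of WT in blue (points are libraries, lines join group means, 3 mice per group, axes start at 0). Rpl26, Rpl30, Rpl4, Rpl23a and Rpl15 peaked at day 2 and Rps6, Rplp2 and Rpl38 declined from day 0; for example, Rpl26 averaged 193 ± 34.6 FPKM in KO and 208 ± 16.8 FPKM in WT at day 2 (SD, n = 3).

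Such copies were common. In a search of the coding sequences of 75 members against the GENCODE vM21 transcripts (at least 95% identity over at least 80% of the coding sequence), 72 had at least 1 other gene that matched, 17 had at least 10 and the median was 6. Of the 560 matches, 544 were annotated as pseudogenes. Rpl21 had the most, 57, followed by Rpl7a with 31, Rpl29 with 27 and Rps2 with 23. Only 5 members had a matching gene in the table, among them Rpl21, Rpl30, Rplp2 and Rps15a. Levels of all members with copies depend on how reads were shared out. The levels and courses of Rplp2 and Rps15a given above share this limit. The number of copies had a Spearman correlation of 0.0913 with the day 4 change in KO and 0.159 in WT over 75 members. Rpl34-ps1, outside the rule because of its symbol, had 926 ± 13.2 FPKM in KO at day 4, against 1733 ± 312 FPKM at day 0, and 872 ± 126 FPKM in WT at day 4, against 2094 ± 359.5 FPKM at day 0 (SD, n = 3 each).

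The steps between RANKL days compare no day 0 library, although the day 0 libraries enter the estimate of the spread that all comparisons share. From day 2 to day 3 all 76 members had a negative log2 change in both genotypes, with medians of -0.26 in KO and -0.39 in WT, against 0.00 and 0.01 over all genes. Past the threshold were 11 members in KO, all lower, against 13.6% of all genes, and 44 in WT, all lower, against 17.2%. The day 3 libraries were below the day 2 libraries without overlap in 34 members in KO, against 26.1% of all genes, and in 62 in WT, against 26.5%. Fitted on the compared groups alone, 22 members fell in KO and 48 in WT. With the mouse as a block, which uses the pairing of libraries by animal, 33 members fell in KO and 66 in WT. Leaving out WT mouse 531 brought the WT median to -0.24. Without KO mouse 481 there were 2 in KO, without KO mouse 528 or 532 there were 0, without WT mouse 480 there were 22 in WT and without WT mouse 531 there were 5. From day 3 to day 4 all 76 again had negative values, with medians of -0.38 in KO and -0.30 in WT. Past the threshold were 34 members in KO, against 8.25% of all genes, and 17 in WT, against 10.9%, with the compared groups alone 64 in KO and 36 in WT, and with the mouse as a block 61 in KO and 41 in WT. There was no overlap in 66 members in KO, against 23.1% of all genes, and in 47 in WT, against 25.6%. Without KO mouse 528 there were 0 in KO, without KO mouse 481 there were 6 and without KO mouse 532 there were 18. Without WT mice 480, 529 and 531 there were 3, 2 and 31 in WT. For both steps, the share of all genes called is not given for the compared groups alone, the block or a mouse left out. Those counts have no background. The sum of 8 neutrophil markers was 118 to 130.5 FPKM in KO and 64.5 to 157 FPKM in WT at day 4, against 181 to 205 FPKM in KO and 127 to 219.7 FPKM in WT at day 2.

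Rpl26 fell at both steps, with a change from day 2 to day 3 of -0.54 (SE 0.17, limma adjusted p = 0.0239) in KO and -0.88 (SE 0.17, limma adjusted p = 0.00065) in WT, and from day 3 to day 4 of -0.88 (SE 0.17, limma adjusted p = 0.00205) in KO and -1.08 (SE 0.17, limma adjusted p = 0.000345) in WT. Rpl30 changed from day 2 to day 3 by -0.76 (SE 0.23, limma adjusted p = 0.016) in KO and -0.64 (SE 0.23, limma adjusted p = 0.0365) in WT. Rps2 fell from day 2 to day 3 in KO (-0.40, SE 0.13, limma adjusted p = 0.0233) and from day 3 to day 4 in WT (-0.64, SE 0.13, limma adjusted p = 0.00212), and Rps20 from day 2 to day 3 in WT (-0.51, SE 0.14, limma adjusted p = 0.00849). Rpl27a changed by -0.60 (SE 0.13, limma adjusted p = 0.00364) from day 3 to day 4 in KO. Rpl10, one of the last proteins to join the large subunit and needed for subunits to pair, had the smallest change from day 3 to day 4 in both genotypes, -0.09 (SE 0.14, limma adjusted p = 0.704) in KO and -0.06 (SE 0.14, limma adjusted p = 0.813) in WT. Its levels were 541, 600.1 and 510.3 FPKM in KO at day 4, against 605, 638 and 516 FPKM at day 3, and 504, 513 and 582 FPKM in WT at day 4, against 557, 550.5 and 552 FPKM at day 3, and these groups overlapped. Rpl17 and Rps16 were among the members with the smallest changes from day 2 to day 3 in KO, -0.10 and -0.13, and Rpl10, Rpl15 and Rps9 had the smallest in WT, -0.17, -0.19 and -0.23, none past the threshold. From day 3 to day 4, Rpl23 and Rpl17 in KO (-0.23 and -0.26) and Rpl31 and Rpl23 in WT (-0.16 and -0.16) were the next smallest.

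No member differed between KO and WT past the threshold on any day (limma, 0 of 76 at days 0, 2, 3 and 4, against 0.377% of all genes at day 0 and 0.00992% at each of days 2, 3 and 4). At an unadjusted p under 0.05 there were 4 members at day 0, 0 at day 2, 0 at day 3 and 2 at day 4, against 10.9%, 0.645%, 0.774% and 0.803% of all genes. The median KO against WT difference of the members was -0.21 at day 0, -0.03 at day 2, 0.10 at day 3 and 0.03 at day 4 on the log2 scale. At day 0 the difference was negative in 74 of 76 members, at day 2 in 59, at day 3 in 3 and at day 4 in 15. Of all genes 52.2, 53.1, 50.2 and 42.1% were negative on these days. Among other genes of up to 1500 coding bases, 60.4 to 83.9% of a length class were negative at day 0 and 21.5 to 41.8% at day 3. The members move together from library to library, and leaving out 1 mouse at a time moved these medians. The day 0 median ran from -0.35 without WT mouse 529 to -0.08 without KO mouse 532, and the day 2 median from -0.10 without WT mouse 529 to 0.07 without WT mouse 531. At days 3 and 4 it ran from 0.03 without KO mouse 528 to 0.18 without KO mouse 532, and from -0.04 without WT mouse 529 to 0.12 without WT mouse 531. With equal summed FPKM the day 0 median was -0.06, against 0.10 over all genes. The day 4 median was then -0.01, against -0.02 over all genes, so the members' sign at day 4 turned.

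The 4 members with an unadjusted p under 0.05 at day 0 were Rps4y2, Rpl35a, Rpl41 and Rps14, of which Rpl41 and Rps14 were chosen after their values were seen. Rps4y2 had 12.0, 9.81 and 6.39 FPKM in KO, against 13.7, 13.5 and 15.7 FPKM in WT, a difference of -0.59 (SE 0.24, limma adjusted p = 0.4), and these groups did not overlap. Rpl35a had 807, 941 and 584 FPKM in KO, against 1024, 802 and 1263 FPKM in WT, a difference of -0.41 (SE 0.18, limma adjusted p = 0.425). Rpl41 differed by -0.32 (SE 0.14, limma adjusted p = 0.425) and Rps14, a platform protein, by -0.34 (SE 0.16, limma adjusted p = 0.438), both with overlapping groups. Besides Rps4y2, Rpl5 had no overlap at day 0, with 177, 171 and 141 FPKM in KO, against 183, 186 and 189 FPKM in WT, where 3.65% of all genes were lower without overlap. Rps21 had a difference of -0.44 (SE 0.23, limma adjusted p = 0.488), and at the other end of the range stood Rpl4 with 0.01 and Rpl26 with 0.17.

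At day 4 the 2 members with an unadjusted p under 0.05 were Rpl26 and Rpl30. Rpl26 had 72.9, 68.0 and 71.1 FPKM in KO, against 49.1, 46.7 and 63.6 FPKM in WT, a difference of 0.42 (SE 0.17, limma adjusted p = 1.0). These groups did not overlap, as was the case for 2.34% of all genes in this direction, and at day 3 Rpl26 was also higher without overlap, by 0.22 (SE 0.17, limma adjusted p = 1.0), where the share of all genes was 3.96%. Rpl30 had 38.9, 18.4 and 19.4 FPKM in KO, against 35.6, 29.2 and 47.5 FPKM in WT, a difference of -0.59 (SE 0.23, limma adjusted p = 1.0) with overlapping groups. At day 2 the differences ran from -0.38 for Rps4y2 to 0.05 for Rpl15, and 0 members were without overlap, against 3.91% of all genes. At day 3 the lowest values belonged to Rps4y2 (-0.33), Rpl30 (-0.13) and Rps2 (-0.02) and the highest to Rpl26 (0.22), Rps29 (0.18) and Rpl36 (0.19).

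The difference between the genotypes in the change from day 0 was tested directly, as KO change minus WT change. No member passed at day 2, 3 or 4 (limma, against 0.0694%, 0.0694% and 0.0595% of all genes), and an unadjusted p under 0.05 was found in 0, 7 and 0 members, against 4.06%, 7.81% and 3.81% of all genes. The medians over the members were 0.19 at day 2, 0.32 at day 3 and 0.25 at day 4, against 0.00, 0.01 and 0.02 over all genes. Other short genes also had positive medians. At day 3 these were 0.27 up to 300 coding bases, 0.17 at 401 to 500 and 0.06 at 701 to 1500. The members of these classes had 0.43, 0.32 and 0.25, and other genes over 1500 bases had -0.10. With 1 mouse left out the medians over all members ran from 0.09 without KO mouse 532 to 0.28 without KO mouse 481 at day 2. They ran from 0.19 without WT mouse 531 to 0.44 without WT mouse 529 at day 3. At day 4 they ran from 0.14 without KO mouse 532 to 0.31 without KO mouse 528. These values contain the day 0 difference between KO and WT. Under that scaling to equal summed FPKM the medians were 0.06, 0.12 and 0.07, and the median of all genes moved to -0.10, -0.15 and -0.13. The adjusted p of the members reached no lower than 0.979 at day 2, 0.631 at day 3 and 0.887 at day 4. For Rps6 the value was 0.25 at day 3, with a standard error of 0.15. The 7 members with an unadjusted p under 0.05 at day 3, singled out after their values were seen, were Rpl5, Rpl19, Rpl31, Rpl36a, Rpl41, Rps14 and Rps24, with values from 0.31 for Rpl5 to 0.49 for Rps14 and an adjusted p no lower than 0.631. By the adjusted p, the named members were Rpl23a (0.22), Rpl29 (0.23) and Rps7 (0.23) at day 3, Rpl6, Rpl26 and Rps6 at day 2 (0.11, -0.29 and 0.09) and Rpl3, Rpl6 and Rps6 at day 4 (0.16, 0.19 and 0.19), most of them in ties.

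Ribosomal protein genes are short, and short genes of the table had negative median changes from day 0. At day 2 the members were close to other genes of the same coding length, apart from those of at most 300 bases in WT (8 members, -0.75, against -0.54 in 223 other genes). Between 401 and 500 bases, 22 members had a median change of -0.24 in KO and -0.41 in WT, against -0.38 and -0.48 in 388 other genes. At day 4 they lay below them in every length class: the same members had -0.87 in KO and -1.08 in WT, against -0.47 and -0.66 in the other genes. Of 301 to 400 bases, 15 members had -1.02 in KO and -1.37 in WT at day 4, against -0.34 and -0.50 in 314 other genes. Of 701 to 1500 bases, 14 members had -0.72 in KO and -0.89 in WT, against -0.23 and -0.29 in 3664 other genes. The 4171 genes over 1500 bases, with 0 members among them, had medians of 0.29 and 0.36. Within the family, shorter members fell more, with a Spearman correlation of coding length and day 4 change of 0.379 in KO and 0.426 in WT over 75 members. Members of higher mean FPKM also fell more, with a Spearman correlation of -0.397 in KO and -0.451 in WT over 76 members. The separate parts of length and level were not tested. In KO against WT at day 0, the members of each class were also lower than the other genes, from -0.16 against -0.04 at 701 to 1500 bases to -0.31 against -0.19 at up to 300 bases. The part of fragment length and library preparation in these values was not tested.

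**Figure D4:**
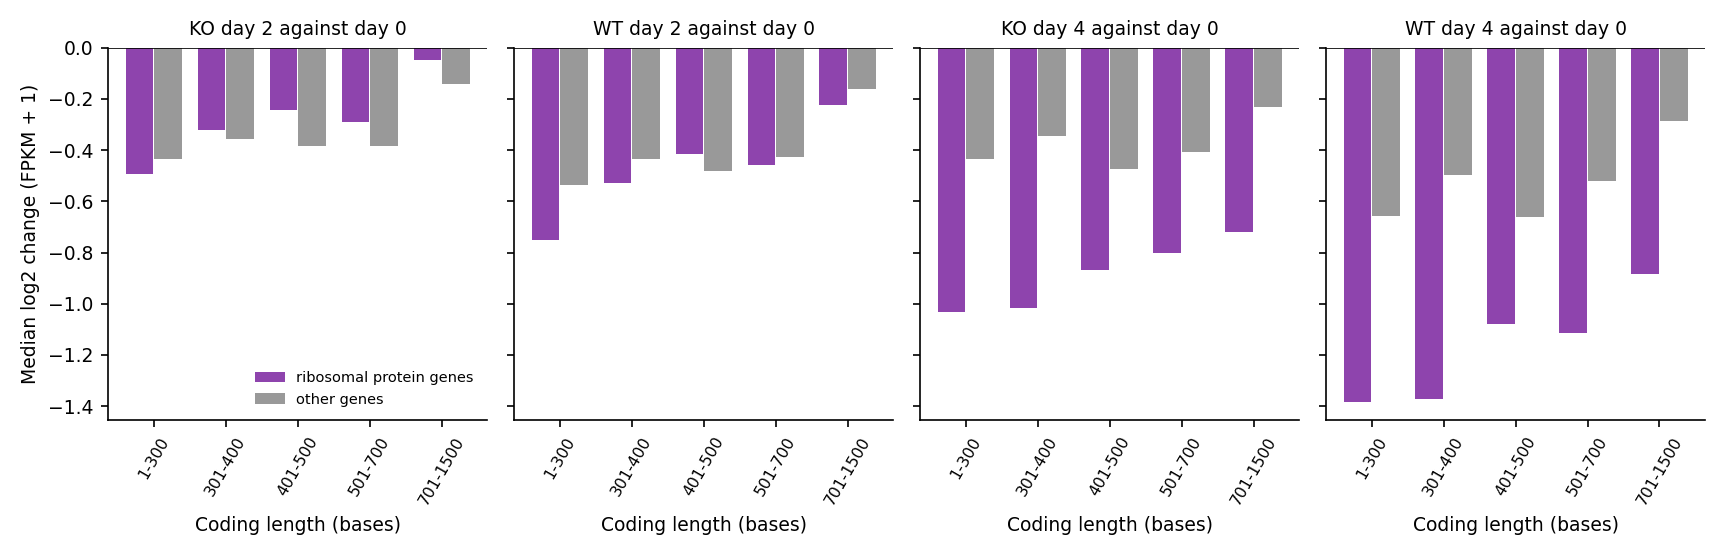
Median log2 change of the members (purple) and of other genes (grey) in classes of coding length, for day 2 and day 4 against day 0 in KO and WT. At day 2 the values of a class differ by at most 0.21, and at day 4 the members lie below the other genes in each class (401 to 500 bases: -0.87 against -0.47 in KO and -1.08 against -0.66 in WT).

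Some proteins of the cytosolic ribosome have symbols outside the rule. These lists of related genes were drawn up with earlier results of these data known. Of 8 tested genes in this list, 5 fell in KO and 7 fell in WT at day 4, against 43.1% and 44.6% of all genes, with medians of -0.76 and -1.003. Fau, which encodes the small subunit protein Rps30, had 443 ± 28.0 FPKM in KO at day 4, against 870.5 ± 206 FPKM at day 0 (SD, n = 3 each), a change of -0.95 (SE 0.16, limma adjusted p = 1.88e-05). WT libraries averaged 450.5 ± 44.2 FPKM at day 4, against 1134 ± 204 FPKM at day 0, a change of -1.32 (SE 0.16, limma adjusted p = 2.3e-07). Gnb2l1 (Rack1), the scaffold on the small subunit head, changed by -0.75 (SE 0.11, limma adjusted p = 4e-06) in KO and -0.93 (SE 0.11, limma adjusted p = 2.19e-07) in WT. The paralogs Rpl36al and Rps27l changed by -0.77 and -0.98 in KO and -1.08 and -1.22 in WT.

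Most genes that build the ribosome rose at day 2. Of 53 genes for ribosome assembly and rRNA synthesis, 45 rose at day 2 in both genotypes, against 40.1% of all genes in KO and 41.2% in WT. In KO 0 fell, against 39.4% of all genes, and in WT 1 fell, against 40.1%, with medians of 0.70 in KO and 0.80 in WT. At day 4, 21 were higher and 21 lower than at day 0 in KO and 20 higher and 22 lower in WT, near the shares of all genes, of which 40.7% were higher and 43.1% lower in KO and 40.9% higher and 44.6% lower in WT. With equal summed FPKM 53 rose at day 2 in each genotype, and at day 4 the medians were 0.17 in KO and 0.36 in WT, against -0.06 and -0.04 without it. That scaling moved the median of all genes to 0.35 in KO and 0.45 in WT at day 2 and to 0.16 and 0.29 at day 4. The share of all genes called with it is not given. Ncl, nucleolin, had 141 ± 8.98 FPKM in KO at day 2, against 65.8 ± 6.51 FPKM at day 0, and 149.5 ± 13.0 FPKM in WT at day 2, against 64.4 ± 9.28 FPKM at day 0 (SD, n = 3 each), and its change at day 4 was 0.03 (SE 0.10, limma adjusted p = 0.778) in KO and 0.01 (SE 0.10, limma adjusted p = 0.906) in WT. Of this list the smallest adjusted p-values at day 4 in WT belonged to Tcof1 (-0.89, SE 0.07, limma adjusted p = 7.75e-10), a factor of rRNA transcription, Polr1b (0.91, SE 0.08, limma adjusted p = 3.12e-09), a subunit of RNA polymerase I, Surf6 (1.13, SE 0.11, limma adjusted p = 1.13e-08) and Noc3l (0.86, SE 0.09, limma adjusted p = 2.33e-08). Ncl was chosen after its values were seen.

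Of 33 translation initiation factors, 20 rose and 4 fell at day 2 in KO, against 40.1% and 39.4% of all genes, and 19 rose and 5 fell in WT, against 41.2% and 40.1%. At day 4, 12 rose and 11 fell in KO, against 40.7% and 43.1% of all genes, and 11 rose and 14 fell in WT, against 40.9% and 44.6%. Scaled to equal summed FPKM, 17 were higher and 7 lower at day 4 in KO and 19 and 8 in WT. The median of all genes was then 0.16 in KO and 0.29 in WT, and the share of all genes called is not given. The factors with the smallest adjusted p at day 4 in WT were Eif4a2 (1.38), Eif1 (-1.30), Eif3k (-1.33) and Eif1a (-0.93). Eif4a2 is a helicase that unwinds mRNA before the small subunit scans it. Of 12 elongation factors and other mRNAs with a known TOP tract, 3 rose and 9 fell at day 4 in both genotypes, against 40.7% and 43.1% of all genes in KO and 40.9% and 44.6% in WT, with medians of -0.53 in KO and -0.71 in WT. Those that fell in WT included Nap1l1 (-0.996, SE 0.11, limma adjusted p = 6.15e-08), Eif5a (-1.04, SE 0.13, limma adjusted p = 2.69e-07) and Tpt1 (-1.001, SE 0.14, limma adjusted p = 1.22e-06), and Pabpc1, the poly(A) binding protein, rose, by 1.26 (SE 0.17, limma adjusted p = 1.2e-06) in KO and 1.54 (SE 0.17, limma adjusted p = 6.4e-08) in WT. Eef2, the elongation factor that moves the ribosome along the mRNA and also a TOP mRNA, rose too, by 0.25 (SE 0.11, limma adjusted p = 0.0353) in KO and 0.29 (SE 0.11, limma adjusted p = 0.0145) in WT, and was chosen after its values were seen.

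Of 18 regulators of ribosomal protein mRNA, 14 rose and 2 fell at day 2 in KO, against 40.1% and 39.4% of all genes, and 14 rose and 1 fell in WT, against 41.2% and 40.1%. At day 4, 10 rose and 1 fell in KO, against 40.7% and 43.1%, and 12 rose and 2 fell in WT, against 40.9% and 44.6%. Mtor changed by 1.003 (SE 0.14, limma adjusted p = 1.88e-06) in KO and 1.30 (SE 0.14, limma adjusted p = 4.57e-08) in WT at day 4, and Max, the partner of Myc, by -0.90 (SE 0.10, limma adjusted p = 4.48e-08) in KO and -1.10 (SE 0.10, limma adjusted p = 2.25e-09) in WT. Rptor, which binds mTOR substrates, and Sp1 changed by 0.65 and 0.73 in WT. Myc, also chosen after its values were seen, averaged 69.3 ± 6.59 FPKM in KO at day 2, against 29.3 ± 1.99 FPKM at day 0, and 73.8 ± 5.55 FPKM in WT at day 2, against 22.4 ± 3.99 FPKM at day 0 (SD, n = 3 each). At day 4 its change from day 0 was -0.01 (SE 0.11, limma adjusted p = 0.96) in KO and 0.28 (SE 0.11, limma adjusted p = 0.0232) in WT. The sum of 10 proliferation markers was 1004 to 1176 FPKM in KO and 744 to 1233 FPKM in WT at day 0, 518 to 639.6 FPKM in KO and 542 to 712 FPKM in WT at day 2, and 216 to 288 FPKM in KO and 232 to 265 FPKM in WT at day 4. At day 2 against day 0, 1 of these markers rose and 5 fell in KO, against 40.1% and 39.4% of all genes. In WT 3 rose and 3 fell, against 41.2% and 40.1%, and the medians were -0.36 in KO and -0.03 in WT. From day 2 to day 3 all 10 fell in each genotype, against 13.6% of all genes in KO and 17.2% in WT. From day 3 to day 4, 3 fell in KO, against 8.25% of all genes, and 9 in WT, against 10.9%. At day 4, 10 were lower than at day 0 in KO, against 43.1% of all genes, and 9 in WT, against 44.6%. From each RANKL day to the next the median change of these markers was negative, as was that of the members. The part of these markers in the results was not tested.

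**Figure D5:**
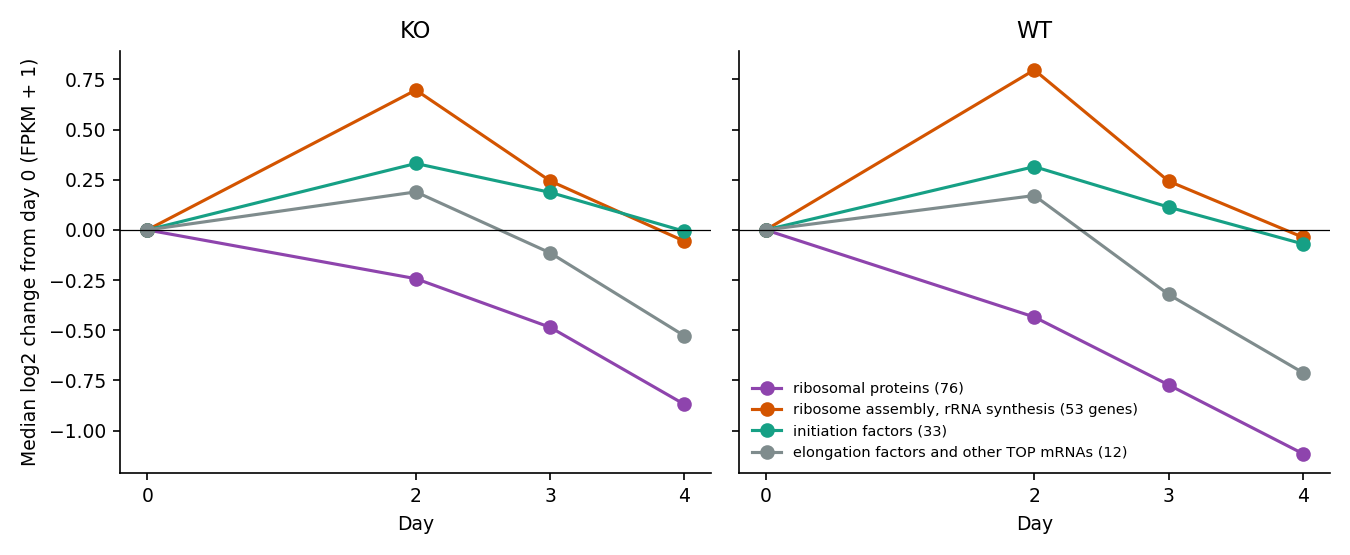
Median log2 change from day 0 of the 76 ribosomal protein genes and of 3 lists of translation genes, in KO (left) and WT (right). The 53 genes of ribosome assembly and rRNA synthesis peaked at day 2 (0.70 in KO and 0.80 in WT) while the median of the ribosomal protein genes was below 0 at each RANKL day. At day 2 its sign depended on the scaling, being 0.16 in KO and 0.09 in WT with equal summed FPKM.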

How the data were processed

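The deposited table holds FPKM per gene and library, made by the authors with HISAT2 2.0.5, Cufflinks 2.2.1 and Cuffdiff on mm10, per the submitters' processing notes. Its genes had been preselected by a rule not given in the sources used here, as are the gene annotation and read depth, so no counting error is given. It has 24 value columns, matched to samples by their names, and 0 were left out. The members and lists were chosen with earlier results of these data known. For log2(FPKM + 1), a gene was kept if its mean reached 1 FPKM in any group (10081 of 10721, all 76 members among them), and 17 comparisons came from 1 limma fit (limma 3.58.1, R 4.3.3) of the 8 groups with 16 residual degrees of freedom, checked on simulated data. A pseudocount of 1 understates changes of low genes. The fit has no mouse term, so libraries of 1 mouse count as independent. Libraries share a mouse across days, within a genotype. Their deviations from group means correlated with a median of 0.261 over 18 pairs in KO and 0.136 over 18 pairs in WT, and a fit with the mouse as a replicate block was run beside it. Named members were those with the extreme changes (6 at each end of day 4 against day 0, 3 at each end of the steps and genotype comparisons), the smallest adjusted p of the interactions, the 5 highest and 5 lowest mean FPKM, the stalk and 5S members, Rps6 and Rps27a, and the 4 genes of each other list with the smallest adjusted p at day 4 in WT; a few genes are not reported by name here. Of the table's symbols 89.5% were current RefSeq symbols, and Rps3a was matched as Rps3a1. Coding lengths and copies came from GENCODE vM21 (blastn 2.17.0), and promoter windows from RefSeq. Alternatives changed the pseudocount, filter, scaling, groups fitted, weights, block, mice and, for the share, the genes summed.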

Additional observations from a re-analysis of the deposited data

How the results depend on the processing

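Under the alternatives run, the 75 members lower at day 4 against day 0 stayed within 70 to 75 in each genotype, and the 0 members called between genotypes or in the interaction stayed at 0. Other counts of members past the threshold, higher and lower added, moved. The share of all genes called under the alternatives is not given, so these counts have no background. Leaving out 1 mouse gave 9 to 41 in KO and 32 to 53 in WT for day 2 against day 0, 33 to 66 in KO for day 3 against day 0, 0 to 14 in KO and 5 to 52 in WT for day 3 against day 2, and 0 to 40 in KO and 2 to 31 in WT for day 4 against day 3. With only the groups compared there were 17 in KO and 35 in WT for day 2 against day 0, 22 in KO for day 3 against day 2, and 64 in KO and 36 in WT for day 4 against day 3. With samples weighted by day the counts were 18 in KO for day 2 against day 0, 29 in KO and 67 in WT for day 3 against day 2, and 66 in KO and 47 in WT for day 4 against day 3. With equal summed FPKM, a scaling chosen after seeing the data, they were 33 in WT for day 2 against day 0, 36 in KO for day 3 against day 0, 60 in KO and 68 in WT for day 3 against day 2, and 67 in KO and 58 in WT for day 4 against day 3. With the mouse as a replicate block, which uses the pairing by animal, they were 33 in KO for day 3 against day 2, and 61 in KO and 41 in WT for day 4 against day 3, and no other total moved by over 1.5 times. For day 2 against day 0, equal summed FPKM also turned the directions, to 30 higher and 2 lower in KO, against 5 and 28 as deposited, and to 27 higher and 6 lower in WT, against 4 and 51. The ratio of shares in WT was 0.614 without the 20 other genes of highest mean FPKM and 0.604 over members of at least 300 coding bases, against 0.585. The cause of these moves was not tested.

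Of the alternative values of named members, 1032 kept direction and side of the threshold, 36 lost it, 11 gained it and 27 changed sign. At equal summed FPKM day 4 against day 0 gave 0.095 for Rpl15, 0.13 for Rpl23a, 0.095 for Rpl30 and 0.098 for Rpl4 in WT and 0.080 for Rpl23a in KO. The interaction was then -0.015 for Rpl6 and -0.031 for Rps6 at day 2 and -0.019 for Rpl3 at day 4. Rps2 in KO against WT at day 3 was 0.0027 with median scaling. The other changes of sign were KO against WT differences with 1 mouse left out, which ran from -0.12 to 0.34 for Rpl26 and from -0.049 to 0.050 for Rpl4 at day 0. At day 2 they ran from -0.060 to 0.14 for Rpl10, from -0.056 to 0.16 for Rpl15 and from -0.060 to 0.16 for Rpl19. At day 3 they ran from -0.29 to 0.030 for Rpl30 and from -0.078 to 0.049 for Rps2. At day 4 they ran from -0.11 to 0.045 for Rpl31, from -0.039 to 0.19 for Rpl35, from -0.37 to 0.044 for Rps4y2 and from -0.0072 to 0.17 for Rpsa. The unknown depth limits what can be said of low members such as Rps4y2.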
